A study of Mus musculus with 9 samples.

Results

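Chromatin-bound Hdac1 was mapped by ChIP-seq in mouse haemogenic endothelium, and the regions described here are those that recurred between ES lines and lay away from both ends of every annotated gene. The 3 Hdac1 peak lists were merged wherever peaks overlapped by 1 bp or more, which gave 12575 regions. A region was kept when it was present in at least 2 of the 3 lists and overlapped no window of 1000 bp either side of an annotated end of any mm10 gene, coding or not. This left 799 regions, 6.35% of all Hdac1 regions. The other recurrent regions, 5940 in number, lay at gene ends, and 2749 more regions lay away from gene ends in 1 list alone. The 799 regions were thus chosen by the Hdac1 peak positions themselves, and their number and their presence per line are descriptions with no test. The word distal holds only for the outer ends of genes. On the chromosomes other than 18, for which transcription starts were available, 372 of 773 members (48.12%, 95% Wilson interval 44.62 to 51.65) lay over a RefSeq transcription start inside a gene, so close to 1 member in 2 was a promoter region by annotation.

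The cells were haemogenic endothelium, the endothelium that gives rise to blood cells, differentiated in culture from C57BL/6 ES cells of 3 lines named Bry, Hd1_loxlox and Hd2lox. None of the lines was treated. Bry was used at passages 16 to 19 and the other lines at passages 25 to 30, and the labels used here explain neither the line names nor the alleles they carry. From each line 1 library was made with the Hdac1 antibody, 1 with the Hdac2 antibody and 1 of input, which makes n = 3 lines per antibody with 1 library for each, and nothing in the labels says that the lines were cultured or precipitated in separate experiments. In the order Bry, Hd1_loxlox, Hd2lox, the Hdac1 lists held 7671, 7490 and 7519 peaks and the Hdac2 lists 9279, 5161 and 9082. The lists give positions only. Read depth is therefore unknown, a missing peak is not evidence of missing protein, and the input was not used here. Peak positions also cannot check the labelled cell type, because they do not say whether a gene is transcribed.

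Hdac1 and Hdac2 are closely related class I histone deacetylases, which remove acetyl groups from histone tails. They have no DNA-binding domain for particular sequences and reach chromatin as subunits of the NuRD, Sin3 and CoREST complexes, which transcription factors recruit. During the endothelial-to-haematopoietic transition, transcription factors such as Runx1, Tal1, Lmo2, Gata2, Gfi1 and Gfi1b switch endothelial cells to a blood fate, and Gfi1 and Gfi1b act as repressors through the CoREST complex. Many genes have alternative promoters inside their outer annotated span. Runx1 is the textbook case in blood: it has a distal promoter at its outer end and a proximal one far inside the gene.

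The sequences that carry the main pattern were the 250 bp in front of RefSeq starts, read 5′ to 3′ on the strand of the gene from the GRCm38.p6 RefSeq table, with each CG dinucleotide (CpG) in capitals. The first pair is from Runx1. The inner start, inside a member, is at position 92697329 of chromosome 16 on the minus strand, and its 250 bp (chr16:92697330-92697579) held 27 CpGs. The outer start of the same gene, under no Hdac1 peak, is at 92826074, and its 250 bp (chr16:92826075-92826324) held 2.
Runx1 inner start, under a member: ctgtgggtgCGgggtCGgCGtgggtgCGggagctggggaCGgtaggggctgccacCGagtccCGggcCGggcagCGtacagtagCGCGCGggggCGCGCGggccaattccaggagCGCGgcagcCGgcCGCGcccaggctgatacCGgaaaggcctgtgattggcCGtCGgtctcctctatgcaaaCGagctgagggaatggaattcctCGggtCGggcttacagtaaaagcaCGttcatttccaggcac
Runx1 outer start, no Hdac1 peak: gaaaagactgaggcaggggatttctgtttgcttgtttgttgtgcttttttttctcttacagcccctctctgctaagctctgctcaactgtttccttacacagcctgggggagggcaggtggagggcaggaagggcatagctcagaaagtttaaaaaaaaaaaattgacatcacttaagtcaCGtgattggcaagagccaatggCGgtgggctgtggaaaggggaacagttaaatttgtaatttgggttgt
The next 3 come from within a single gene, Ldb1, which encodes the LIM-domain adaptor that joins Lmo2 to its partners. The start under a member, at position 46045311 of chromosome 19 (chr19:46045312-46045561, minus strand), had 40 CpGs. Of its inner starts with no Hdac1 peak, the one at 46039621 (chr19:46039622-46039871) had 22 and the one at 46037070 (chr19:46037071-46037320) had 4.
Ldb1 inner start, under a member: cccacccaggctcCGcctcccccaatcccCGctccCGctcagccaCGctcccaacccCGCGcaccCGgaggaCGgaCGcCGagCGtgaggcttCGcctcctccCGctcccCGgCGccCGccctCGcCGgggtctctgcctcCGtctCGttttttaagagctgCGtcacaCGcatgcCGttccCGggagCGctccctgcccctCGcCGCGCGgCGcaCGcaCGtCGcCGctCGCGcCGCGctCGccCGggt
Ldb1 inner start with 22 CpGs, no Hdac1 peak: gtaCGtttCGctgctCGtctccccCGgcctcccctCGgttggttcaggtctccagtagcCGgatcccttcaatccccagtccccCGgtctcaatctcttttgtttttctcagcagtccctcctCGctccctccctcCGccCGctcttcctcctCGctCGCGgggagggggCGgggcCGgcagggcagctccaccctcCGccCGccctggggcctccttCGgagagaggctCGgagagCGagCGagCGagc
Ldb1 inner start with 4 CpGs, no Hdac1 peak: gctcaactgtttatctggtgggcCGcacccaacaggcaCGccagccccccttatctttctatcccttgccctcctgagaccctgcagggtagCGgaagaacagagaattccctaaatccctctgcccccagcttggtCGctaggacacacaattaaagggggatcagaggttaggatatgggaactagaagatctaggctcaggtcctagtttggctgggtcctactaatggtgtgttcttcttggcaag
The remaining sequences show inner starts under members at a Notch gene (Rbpj, chr5:53590236-53590485, plus strand, 25 CpGs), at an endothelial gene (Egfl7, chr2:26586386-26586635, plus strand, 17 CpGs) and at a member found in all 6 lists (Adcy9, chr16:4420499-4420748, minus strand, 34 CpGs), beside an inner start of Erg that no Hdac1 peak covered (chr16:95459349-95459598, minus strand, 3 CpGs).
Rbpj inner start, under a member: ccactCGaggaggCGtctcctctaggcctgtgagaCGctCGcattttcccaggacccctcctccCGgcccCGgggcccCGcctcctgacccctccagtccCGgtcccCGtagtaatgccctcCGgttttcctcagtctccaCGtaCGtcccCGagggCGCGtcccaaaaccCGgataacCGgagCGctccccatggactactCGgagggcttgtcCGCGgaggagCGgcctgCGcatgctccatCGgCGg
Egfl7 inner start, under a member: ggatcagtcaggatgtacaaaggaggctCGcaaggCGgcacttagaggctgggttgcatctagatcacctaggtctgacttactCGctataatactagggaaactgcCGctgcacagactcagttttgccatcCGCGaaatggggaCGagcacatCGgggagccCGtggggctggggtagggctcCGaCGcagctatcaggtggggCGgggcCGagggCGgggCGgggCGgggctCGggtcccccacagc
Adcy9 inner start, under a member: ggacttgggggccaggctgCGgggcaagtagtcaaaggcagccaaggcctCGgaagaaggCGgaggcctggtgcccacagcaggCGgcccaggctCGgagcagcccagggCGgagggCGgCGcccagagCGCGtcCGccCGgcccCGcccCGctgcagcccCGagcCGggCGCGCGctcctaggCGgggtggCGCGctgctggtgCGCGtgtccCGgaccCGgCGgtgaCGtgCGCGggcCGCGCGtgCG
Erg inner start, no Hdac1 peak: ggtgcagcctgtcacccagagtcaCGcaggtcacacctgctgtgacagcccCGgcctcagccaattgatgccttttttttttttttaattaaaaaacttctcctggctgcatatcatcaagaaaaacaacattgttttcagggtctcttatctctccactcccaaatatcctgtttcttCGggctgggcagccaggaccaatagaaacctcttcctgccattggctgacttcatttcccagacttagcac
The covered inner starts above held from 17 to 40 CpGs. The uncovered starts were mixed: 2 to 4 at the outer start of Runx1 and at inner starts of Ldb1 and Erg, but 22 at the other inner start of Ldb1, and the outer start of Erg, not printed, had 14 and no Hdac1 peak.

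Over the whole table of starts the covered and uncovered sets differed more clearly. Of 4728 RefSeq starts that lay more than 1000 bp from any gene end, 470 (9.94%) were under members, 269 under gene-end regions, 318 under a region of 1 list and 3671 under no Hdac1 region. In the 300 bp window around each start (250 bp before and 50 bp after), the ratio of CpGs observed to those expected from base composition had a median of 0.842 at the 470 covered starts, with quartiles of 0.696 and 0.961. At the 3671 uncovered inner starts the median was 0.242, with quartiles of 0.134 and 0.391. The interquartile ranges did not overlap. GC content had medians of 65.83% and 49.33%. A window was called CpG-rich at a ratio of at least 0.6 and a GC content of at least 50%, and 84.68% of covered inner starts met both limits against 7.845% of uncovered ones, which are 288 starts. The outer starts under recurrent gene-end regions had a median ratio of 0.861, and 86.58% of them were CpG-rich, both close to the values of inner starts under members. These values are descriptions, with no test, because starts of the same gene share sequence: the 470 starts belong to 370 genes.

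**Figure D1:**
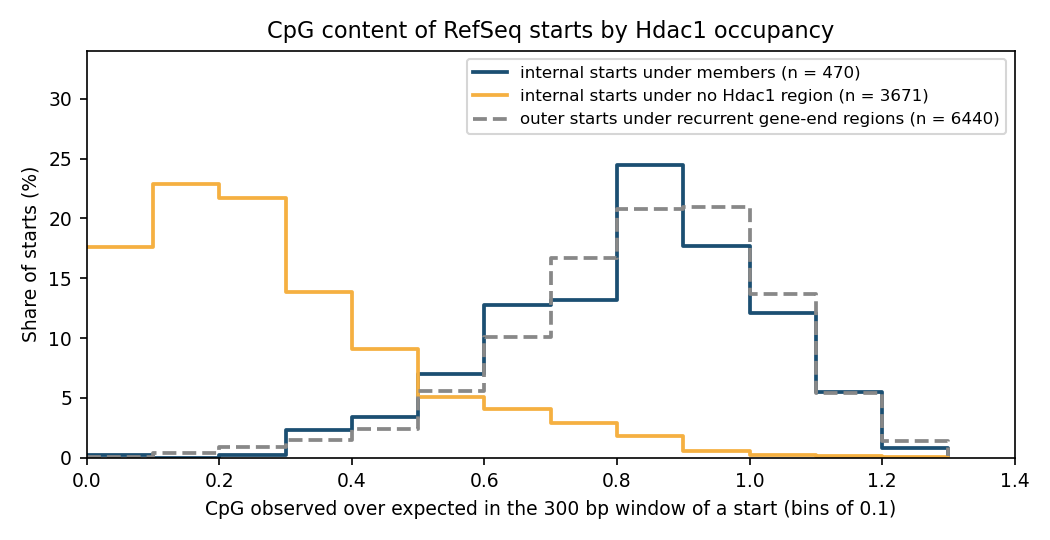
Share of RefSeq starts (vertical axis, percent of each set) by the ratio of observed to expected CpGs in the 300 bp window of the start (horizontal axis, bins of 0.1), for inner starts under members (dark line), inner starts under no Hdac1 region (orange line) and outer starts under recurrent gene-end regions (dashed line). Starts under members, with a median of 0.842, follow the dashed line and sit to the right of the uncovered inner starts, with a median of 0.242.

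Short motifs were searched on both strands of the same 300 bp windows. The Sp1 motif GGGCGG, a GC-box bound by Sp and Klf proteins, was in 73.83% of inner starts under members, 17.65% of uncovered inner starts and 35.66% of all 32851 starts. The ETS core CCGGAA was in 23.4%, 6.919% and 14.9%. The palindromic NRF1 motif was in 11.91%, 0.8989% and 4.603%. Motifs without CG went the other way. The RUNX letters TGTGGT were in 7.872% of starts under members and 19.75% of uncovered ones, the GATA letters AGATAA in 3.83% and 14.25%, and the TATA letters TATAAA in 3.191% and 15.31%. All 5 motifs searched that contain CG (Sp1, ETS, NRF1, the cyclic AMP response element and the E-box CACGTG) were more frequent under members than at uncovered inner starts, and all 5 that do not (RUNX, GATA, TATA, the CCAAT box and AP-1) were less frequent. The sets differ in base composition as given above, and a match to such letters is not a binding site. Outer starts under recurrent gene-end regions had similar shares, 75.09% for Sp1, 30.4% for ETS and 9.27% for RUNX.

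Most genes with such an inner start had no Hdac1 peak at their outer start. Among the 370 genes, the outer start was in no Hdac1 list for 266 (71.89%), in 1 list for 33 and in 2 or 3 lists for 71. Of all 28123 outer RefSeq starts, 19278 (68.55%) were under no Hdac1 region. That share counts starts and not genes, so it is only a rough background. The 71.89% lies near it and is not a result about these genes. Where a gene had several covered inner starts, the one with the highest CpG ratio was taken. It lay a median of 6887.5 bp from the outer one, with a range from 1447 to 748038 bp. Of the 266 genes, 62 also had their outer start in the sequence table. There the median CpG ratio was 0.836 at the inner start and 0.289 at the outer start, and the inner value was the higher in 57 of 62 genes. For the 34 genes with both starts in the table and Hdac1 at the outer start in 2 or 3 lists, the medians were 0.824 and 0.857, and the inner value was higher in 11. Runx1 was one of the 266. Its inner start had a CpG ratio of 1.01 and its outer start, 128745 bp away, one of 0.137. Dnmt1, the maintenance DNA methyltransferase, had ratios of 0.91 and 0.101, with the covered start 7265 bp inside the gene. Dab1, an adaptor of reelin signalling, had the longest distance, 748038 bp, and there the outer start was in 2 Hdac1 lists. Dnmt1 and Dab1 were picked out after their values were seen.

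By position, 372 members lay over an inner start, 269 inside a protein-coding gene without covering a start, 20 inside a non-coding gene only and 112 outside genes, and the 26 members on chromosome 18 were not divided by start. The table of starts is not complete. For 96 of the 269 members inside a coding gene, no gene they overlap has a start in it, so the number over a start is a minimum. In all, 664 of 799 members (83.1%) overlapped the span of a protein-coding gene, against 1514 of 2749 (55.07%) of the single-list regions away from gene ends. Members were near gene ends on the genomic scale. Their distance to the nearest end of any gene had a median of 5636 bp and ran from 1003 to 339438 bp. There were 377 members within 5 kb of an end, 157 between 5 and 10 kb, 214 between 10 and 50 kb, 42 between 50 and 100 kb and 9 beyond 100 kb. The single-list regions lay farther out, with a median of 10918 bp. The 1000 bp limit cut through a continuum of distances. Just inside the window were regions 993 bp from an end of Ifitm10, 998 bp from Gm48952 and 999 bp from Nudcd3, and just outside it were members 1003 bp from Trmt11, 1005 bp from Map4 and 1008 bp from Nr4a3. Inner starts of Ifitm10 and Nudcd3 on one side of the limit, and of Trmt11 and Map4 on the other, were covered in the same way.

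Members were rarely close to one another. Only 9 adjacent pairs were under 5000 bp apart, and 65 members were within 5000 bp of a recurrent gene-end Hdac1 region, the median distance to one being 57192.5 bp. Merged regions had a median width of 1684 bp, from 932 to 7082 bp. The Hdac1 peaks in members were of middling width for their lists, with median percentiles of 48.0 in Bry, 45.9 in Hd1_loxlox and 47.4 in Hd2lox. At recurrent gene-end regions they were higher, at 57.8, 55.4 and 55.4, and at single-list regions away from gene ends lower, at 24.3, 24.5 and 46.4. Members over an inner start had 57.3, 52.8 and 46.2, and members without a start 37.1, 41.3 and 49.2.

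Hdac1 was called at 693 of the 799 members in Bry (86.73%), at 736 in Hd1_loxlox (92.12%) and at 485 in Hd2lox (60.7%). The Hd2lox list was the one that most often lacked a member. All 3 lists held 316 members (39.55%), Bry and Hd1_loxlox alone 314, Hd1_loxlox and Hd2lox alone 106, and Bry and Hd2lox alone 63. Recurrence differed by position. Of members over an inner start, 52.42% were in all 3 lists, close to the 48.77% of gene-end regions. The share was 29.74% for members inside a coding gene and 20.54% for members outside genes. Conversely, 66.07% of members outside genes, 43.12% of those inside a coding gene and 27.69% of those over a start were in Bry and Hd1_loxlox but not in Hd2lox, against 33.86% at gene ends. These shares come from the same lists as the rule and have no test. In Hd2lox 1779 regions away from gene ends were found in that list alone, against 597 in Bry and 373 in Hd1_loxlox.

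**Figure D2:**
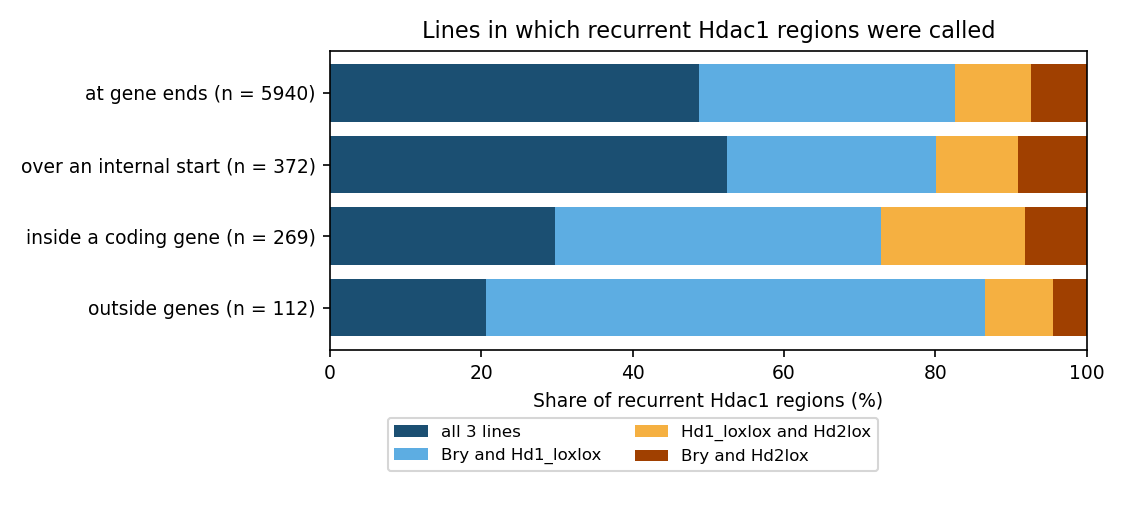
Share of recurrent Hdac1 regions (horizontal axis, percent) by the set of lines in which they were called (colours), for gene-end regions and for members over an inner start, inside a coding gene without a start, and outside genes; n is the number of regions. The part found in all 3 lines falls from 52.42% over inner starts to 20.54% outside genes.

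The Hdac2 lists took no part in the choice of members, and they were compared over the 3 lines. An Hdac2 peak of the Bry line overlapped 658 members (82.35%), one of Hd1_loxlox overlapped 59 (7.384%) and one of Hd2lox overlapped 262 (32.79%). At recurrent gene-end regions the same shares were 83.5%, 3.72% and 35.2%. The spread between lines was thus far larger than the spread between positions. The share at members averaged 40.84 ± 38.13% (SD, n = 3) and that at gene-end regions 40.8 ± 40.17% (SD, n = 3), a difference of 0.04025 percentage points (exact two-sided permutation test, p = 1, adjusted p = 1 by Benjamini-Hochberg over 7 tests), and 3 lines against 3 cannot go below p = 0.1. Counting in each line only the regions with Hdac1 in that line gave 85.86%, 7.88% and 53.81% at members against 85.77%, 3.871% and 52.94% at gene ends, a mean difference of 1.659 points (exact permutation p = 0.7, adjusted p = 1), in the same direction in 3 of 3 lines. The widths of the Hdac2 peaks did not separate the positions either. Their medians per line were 1422, 976 and 930 bp at members and 1460, 951.5 and 899 bp at gene ends, a mean difference of 5.667 bp (exact permutation p = 1, adjusted p = 1). A p of this size in a design this small does not show that the positions are alike.

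Within the members, the Hdac2 share ranged less by position in Bry than in Hd2lox. Among members over an inner start, 84.41% had an Hdac2 peak of Bry, 5.108% one of Hd1_loxlox and 37.63% one of Hd2lox. Members inside a coding gene had 79.55%, 10.41% and 34.94%, and members outside genes had 80.36%, 8.036% and 16.07%. The difference between starts and positions outside genes averaged 7.562 points over lines (exact permutation p = 0.8, adjusted p = 1), was positive in Bry and Hd2lox, and was negative in Hd1_loxlox. In Hd2lox the lower share outside genes went with a lower share of Hdac1 there: 33.93% of members outside genes had an Hdac1 peak of Hd2lox, against 72.31% of those over a start. Among members with Hdac1 in Hd2lox, the Hdac2 share was 52.04% over starts (95% Wilson interval 46.09 to 57.94) and 60.78% inside coding genes (52.87 to 68.17). It was 47.37% outside genes (32.48 to 62.74, 38 members). These intervals cover counting error in 1 library, and members are not replicates, so they do not show whether the positions differ. The part of the Hdac1 calls in the lower Hdac2 share outside genes was not tested. For the 20 members inside a non-coding gene only, Hdac2 of Hd2lox was at 3 (15%). With 1 library per line, the line and its library cannot be told apart. Of the Hdac2 peaks that lay away from gene ends, 656 of 2229 (29.43%) were on members in Bry, 57 of 4307 (1.323%) in Hd1_loxlox and 265 of 5887 (4.501%) in Hd2lox. In all 3 lines most Hdac2 peaks away from gene ends were elsewhere.

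**Figure D3:**
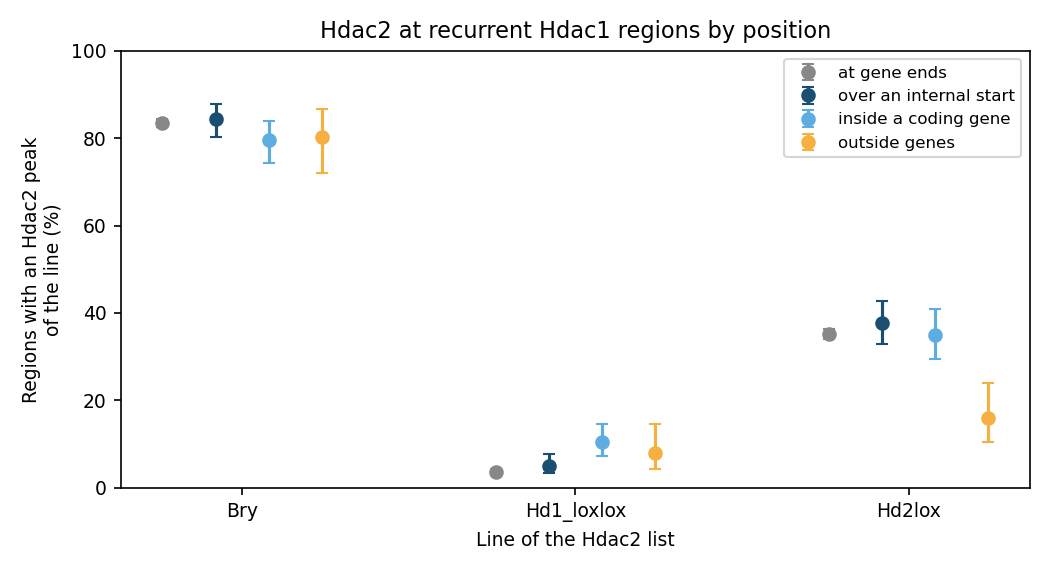
Share of recurrent Hdac1 regions overlapped by an Hdac2 peak (vertical axis, percent) in each line (horizontal axis), for gene-end regions and the members of each position; bars are 95% Wilson intervals, which cover counting error only. Shares are near 80% in Bry and under 11% in Hd1_loxlox at every position, and in Hd2lox members outside genes are at 16.07%, where Hdac1 of Hd2lox is also less frequent (33.93%). Members inside a non-coding gene only are not drawn.

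Counting lists per member, 99 members had no Hdac2 peak in any line, 438 had one in 1 line, 245 in 2 and 17 in 3. Of the 316 members in all 3 Hdac1 lists, 9 had no Hdac2 list, 138 had 1, 158 had 2 and 11 had all 3. Of the 483 members in 2 Hdac1 lists, 90 had none and 6 had all 3.

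Members were assigned to each protein-coding gene whose span they overlapped, or otherwise to the coding gene with the nearest end, which names a neighbour and not a target. They reached 752 of 21883 coding genes (3.44%), of which 712 had 1 member, 31 had 2, 7 had 3 and 2 had 4. Genes with a member had a median length of 48331 bp against 17170 bp for all coding genes. The rule favours long genes, because a member inside a gene lies more than 1000 bp from both its ends. Assignment by overlap favours them too, so the lengths are not a result about these genes.

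Genes for haematopoietic transcription factors had members in 10 of 30 cases (33.33%, against 3.44% of coding genes): Runx1, Runx2, Gfi1, Gfi1b, Tal1, Lmo2, Ldb1, Gata2, Erg and Zfpm1. This list was among those drawn up with results of the same data known, and its count is a description. The members of 5 of these genes were in all 3 Hdac1 lists. Runx1, which encodes the factor required for blood cells to emerge from endothelium, had the widest member of all (7082 bp, chr16:92693336-92700417), around the inner start shown above. Hdac1 peaks of 3395 and 1048 bp lay there in Bry, of 2745 and 4210 bp in Hd1_loxlox and of 1107 bp in Hd2lox, and an Hdac2 peak of 2864 bp in Bry. In each line 1 of these Hdac1 peaks covered the start. No Hdac1 peak of any line lay at either end of Runx1.

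Tal1 and Lmo2 encode a basic helix-loop-helix factor and a LIM-only protein that act in the same complex. The Tal1 member lay inside the gene with its centre 6957 bp from the outer start (chr4:115062150-115064616). Its Hdac1 peaks were 2467 bp wide in Bry, 2076 bp in Hd1_loxlox and 1214 bp in Hd2lox, with Hdac2 peaks of 1689 bp in Bry and 911 bp in Hd2lox, and the ends of Tal1 had Hdac1 in all 3 lists as well. The Lmo2 member (chr2:103969110-103971268) had Hdac1 peaks of 1889, 1806 and 1565 bp in Bry, Hd1_loxlox and Hd2lox and an Hdac2 peak of 1818 bp in Bry. Unlike Tal1, Lmo2 had no Hdac1 peak at its ends in any list, and neither had Ldb1, the adaptor of the complex. Ldb1 had its member (chr19:46044263-46045933) over the CpG-dense inner start printed above, with Hdac1 widths of 1445, 1666 and 1208 bp and an Hdac2 peak of 1929 bp in Bry.

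Gfi1, a repressor that silences endothelial genes in haemogenic endothelium, had a narrow member inside the gene (chr5:107721048-107722355, centre 4104 bp from the outer start), with Hdac1 peaks of 1190, 1263 and 1247 bp in the 3 lines. Hdac2 peaks of 1274 bp in Bry and 861 bp in Hd2lox overlapped it. The ends of Gfi1 had Hdac1 in Bry and Hd1_loxlox. The remaining 5 factors had their member in 2 Hdac1 lists. For Gata2, a zinc-finger factor of blood stem cells, it lay outside the gene, 2442 bp from the nearest end (chr6:88189108-88191449), with Hdac1 in Bry (1830 bp) and Hd1_loxlox (2342 bp) and Hdac2 in the same lines (1924 and 1337 bp). It is one of the 59 members with an Hdac2 peak of Hd1_loxlox. Erg, an ETS factor of endothelium and blood, had Hdac1 of 2168 bp in Bry and 3014 bp in Hd1_loxlox deep inside the gene (chr16:95438695-95441708, 79526 bp from the nearest end) and no Hdac1 at its ends.

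**Figure D4:**
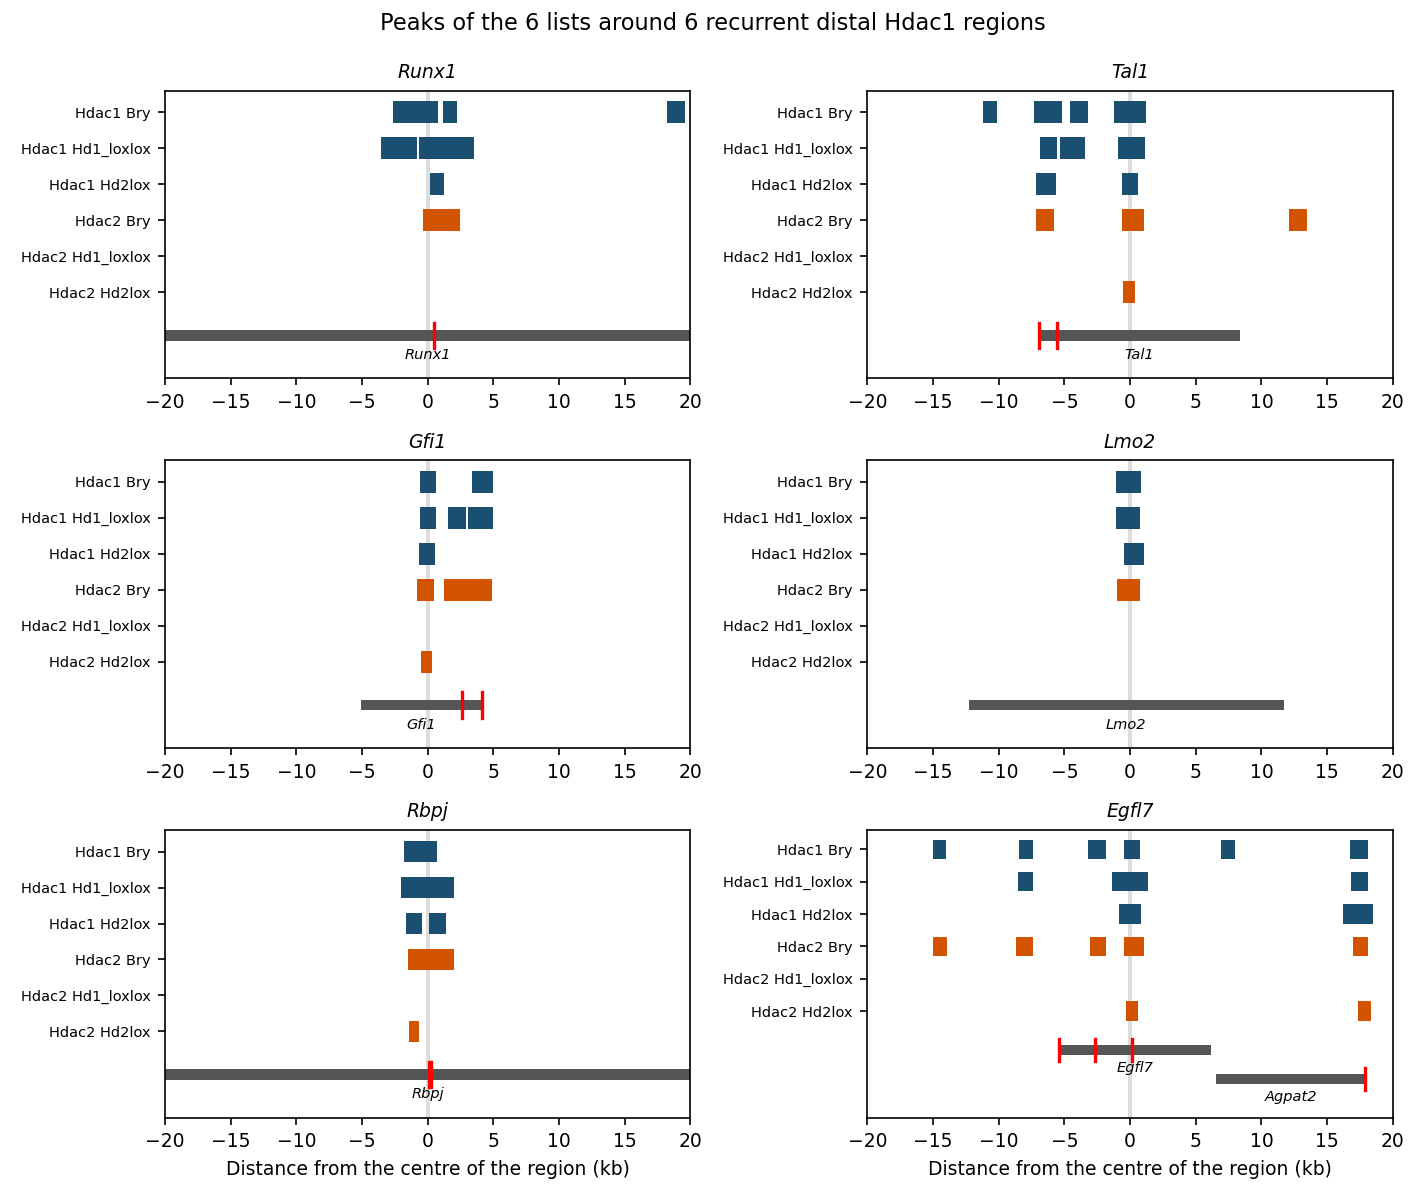
Peaks of the 6 lists within 20 kb of the centre of 6 members, at Runx1, Tal1, Gfi1, Lmo2, Rbpj and Egfl7 (horizontal axis, distance from the centre in kb along the chromosome). Blue bars are Hdac1 peaks, orange bars Hdac2 peaks, grey bars protein-coding genes and red ticks RefSeq starts; the grey line marks the centre. Members at Runx1, Rbpj and Egfl7 cover an inner start, Lmo2 has no start in the table, and no Hdac2 peak of Hd1_loxlox appears in any panel.

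Among 34 endothelial genes 4 had members (11.76%, against 3.44% of coding genes): Sox7, Ets1, Egfl7 and Nr2f2. This list too was drawn up with results of the same data known, and its count is a description. Egfl7, a secreted factor of endothelium whose gene carries the microRNA Mir126a, had a member in all 3 Hdac1 lists over an inner start (chr2:26585141-26587879), with Hdac1 widths of 1160, 2739 and 1651 bp in Bry, Hd1_loxlox and Hd2lox and Hdac2 peaks of 1522 bp in Bry and 897 bp in Hd2lox. A further member in front of Egfl7 was in Bry and Hd1_loxlox. Ets1, an ETS factor, also had 2 members inside the gene. The one in all 3 lists (chr9:32695411-32697485) had widths of 1868, 1644 and 1509 bp with Hdac2 of 1748 bp in Bry, and the other had no Hdac2 peak in any line. Nr2f2, which specifies venous fate, had Hdac1 peaks of 933, 3037 and 2847 bp (chr7:70359496-70362532), and its Hdac2 peaks, 925 and 767 bp wide, were in Hd2lox and not in Bry. Of the 4 endothelial genes, Ets1 and Nr2f2 had no Hdac1 at their ends in any list.

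Of the signalling lists, the Notch and TGF-beta lists had shares of genes with a member near that of all coding genes, and the BMP list a larger one on few genes. In the Notch list 1 of 18 genes (5.556%) had one, Rbpj, the DNA-binding factor of the pathway. Its member (chr5:53588201-53592245) covered a pair of neighbouring inner starts, with Hdac1 peaks of 2574 bp in Bry, 4045 bp in Hd1_loxlox and 1203 and 1338 bp in Hd2lox, Hdac2 of 3515 bp in Bry and 786 bp in Hd2lox, and no Hdac1 at the ends of the gene. In the TGF-beta and activin list 2 of 38 genes had a member (5.263%), the activin receptor gene Acvr1b and the inhibitory Smad gene Smad7. The Smad7 member, in all 3 Hdac1 lists, lay 14673 bp from the nearest gene end, with Hdac1 widths of 1311, 1273 and 1684 bp. In the BMP list 3 of 21 genes (14.29%) had one: Smad6, the inhibitory Smad of the pathway, and its targets Id2 and Id3, all outside genes and in 2 Hdac1 lists. The ends of Acvr1b, Smad7 and Smad6 had Hdac1 in all 3 lists. The TGF-beta share was close to the 3.44% of all coding genes, which is not a result about the list.

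Among the other lists, 4 of 20 immediate early genes had members (Fosb, Egr3, Ier2 and Nr4a1, 20%), as did 1 of 32 cardiac and mesenchymal genes (Gata4, with 2), 1 of 16 YAP and TEAD pathway genes (Ankrd1) and 1 of 35 genes for Hdac1 and Hdac2 complex subunits. The last was Gatad2a, a NuRD subunit, with a member in all 3 lists over an inner start (chr8:69973072-69974972). No member was assigned to any of 26 blood cell surface and effector genes, 16 pluripotency genes, 20 neural and endoderm genes or 20 ribosomal protein genes. With 3.44% of all coding genes reached, counts of 0 or 1 in lists this short are near the background and are not results about those lists. Over the 27 list genes with a member, Hdac1 was at the gene ends in no list for 11 genes, in 1 list for 5, in 2 lists for 5 and in all 3 for 6. Of all 28123 outer RefSeq starts, 68.55% were under no Hdac1 region. That share counts single start positions and not windows of 1000 bp at both ends of genes, so it is not a matched background. Lack of Hdac1 at the ends of the genes named above is therefore not a result about them.

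The widest members in all 3 lists, by the mean percentile of Hdac1 peak width within each list, were at Ubtf, Midn, Arid1a, Kctd1, Nr3c1, Hivep2, Ptch1, Axin2, Auts2 and Dnmt3a. The members at Ubtf, Midn, Arid1a, Hivep2, Ptch1, Axin2 and Dnmt3a covered an inner start. Those at Kctd1, Nr3c1 and Auts2 could not be scored, since their genes have no start in the table. Among these 7 members the highest CpG ratio ran from 0.822 at Hivep2 to 1.09 at Ptch1. Ubtf encodes the factor that opens ribosomal DNA for RNA polymerase I. Its member (chr11:102316119-102320780) covered 5 RefSeq starts, with Hdac1 peaks of 4260 bp in Bry, 4662 bp in Hd1_loxlox and 3065 bp in Hd2lox, at width percentiles of 99.73, 99.68 and 98.64 in their lists. Midn, which encodes the nuclear protein midnolin, had Hdac1 peaks of 4170, 4844 and 2933 bp (chr10:80147560-80152403). Arid1a, a subunit of the BAF remodelling complex, had peaks of 4039, 3828 and 2926 bp (chr4:133750944-133755065), and Ptch1, the Hedgehog receptor, had 4672, 4012 and 2271 bp (chr13:63562546-63567217). At each of the 10 except Axin2 and Auts2 the Hd2lox peak was the narrowest of the 3. At Axin2 and Auts2 the Bry peak was the narrowest, and at Auts2 the Hd2lox peak was the widest. Over whole lists the median Hdac1 peak was 1375 bp in Bry, 1475 bp in Hd1_loxlox and 1445 bp in Hd2lox. Axin2, an inhibitor and target of Wnt signalling, had peaks of 2538, 2953 and 2545 bp (chr11:108919250-108922740), and Dnmt3a, a de novo DNA methyltransferase, 2493, 2879 and 2287 bp (chr12:3805917-3808809). All 10 had an Hdac2 peak in Bry, as did 94.3% of the members in all 3 Hdac1 lists, so this is not particular to the widest.

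All 6 lists held a peak at 11 members. The 10 of them with the widest Hdac1 peaks were at Ubtf, Midn, Nr3c1, Adcy9, Pdgfb, Stox2, Rreb1, Kbtbd11, Grb10 and Ahdc1. Adcy9, an adenylyl cyclase gene, had Hdac1 peaks of 2011, 2890 and 2862 bp and Hdac2 peaks of 2042, 867 and 1189 bp in Bry, Hd1_loxlox and Hd2lox (chr16:4418613-4422266). Pdgfb, the growth factor with which endothelium recruits pericytes, had a member inside the gene (chr15:80011732-80015533), where Hdac2 peaks were 3218 bp wide in Bry, 1261 bp in Hd1_loxlox and 1112 and 1394 bp in Hd2lox. Grb10, an adaptor that damps insulin receptor signalling and is imprinted, had Hdac1 peaks of 1754, 1743 and 1692 bp, nearly equal in the 3 lines, and Hdac2 peaks of 1433, 611 and 1123 bp (chr11:12025157-12027079). Ahdc1, an AT-hook protein gene, had Hdac1 peaks of 1386, 1517 and 1572 bp and Hdac2 peaks of 1244, 842 and 1513 bp (chr4:133038313-133039884). In all 10 the Hdac2 peak of Bry was wider than that of Hd1_loxlox. Over whole lists the median Hdac2 peak was also wider in Bry (1310 bp) than in Hd1_loxlox (1099 bp), so this is not particular to these members. The members at Stox2, Grb10 and Ahdc1 covered none of the RefSeq starts in the table, and Pdgfb and Kbtbd11 have no start there, so theirs could not be scored.

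Gse1 and Septin9 had the most members, 4 each. Gse1, whose product is found with CoREST complexes, is 352883 bp long on chromosome 8, and its members were in Bry and Hd1_loxlox in 4 of 4 cases and in Hd2lox in 1. The one in 3 Hdac1 lists (chr8:120275485-120277532) also had Hdac2 in Bry and Hd1_loxlox. Septin9, a cytoskeletal GTPase gene of 162665 bp on chromosome 11, had 4 members in Bry and Hd1_loxlox and none in Hd2lox, and Hdac2 was at 1 of them, in Bry. The genes with 3 members were Sptbn4, Camta1, Irf2bp2, Irs2, LOC665918, Rbfox3 and Zfp469. LOC665918 is a gene of 795 bp on chromosome Y, and its members were the only 3 on that chromosome. Their peaks were not checked for artefact signal. Sptbn4, a spectrin gene, had 2 of its members in all 3 Hdac1 lists, and Arhgap23, with 2 members, had both in all 3. Irs2, an insulin receptor substrate, and Irf2bp2, a co-repressor that binds Irf2, had their members outside the gene, all in Bry and Hd1_loxlox and not in Hd2lox. Irf2bp2, Irs2, Zfp469 and Gse1 are all on chromosome 8.

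Chromosome 8 held more of the members without a start than any other chromosome. It held 70 of those members (17.46%, Wilson interval 14.05 to 21.48%), against 23 of the 372 over an inner start (6.183%), 465 of 5940 gene-end regions (7.828%) and 4.762% of protein-coding genes. Hdac1 was at 66 of the 70 in Bry, at 69 in Hd1_loxlox and at 24 in Hd2lox. The lines differed in the same direction in regions outside the rule. Of the regions away from gene ends found in 1 list, 11.73% in Bry, 11.8% in Hd1_loxlox and 5.34% in Hd2lox lay on chromosome 8, and of the Hdac2 peaks away from gene ends 11.93%, 13.77% and 4.824%. At gene ends the Hdac1 shares were 7.601%, 8.165% and 5.564%. Each of these sets had a lower share in Hd2lox than in the other lines. Leaving chromosome 8 out, 158 of 331 members without a start (47.73%) were in Bry and Hd1_loxlox only, against 46 of 70 (65.71%) on it. Chromosome 11 held 14.46% of members without a start, 9.409% of those over a start and 11.6% of gene-end regions. Chromosome X held 3 members (0.3755%) and 14 gene-end regions (0.2357%), against 4.414% of coding genes, so its low share is not particular to members. The lists carry no read counts, so the signal over chromosome 8 as a whole, and its part in these shares, was not tested.

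**Figure D5:**
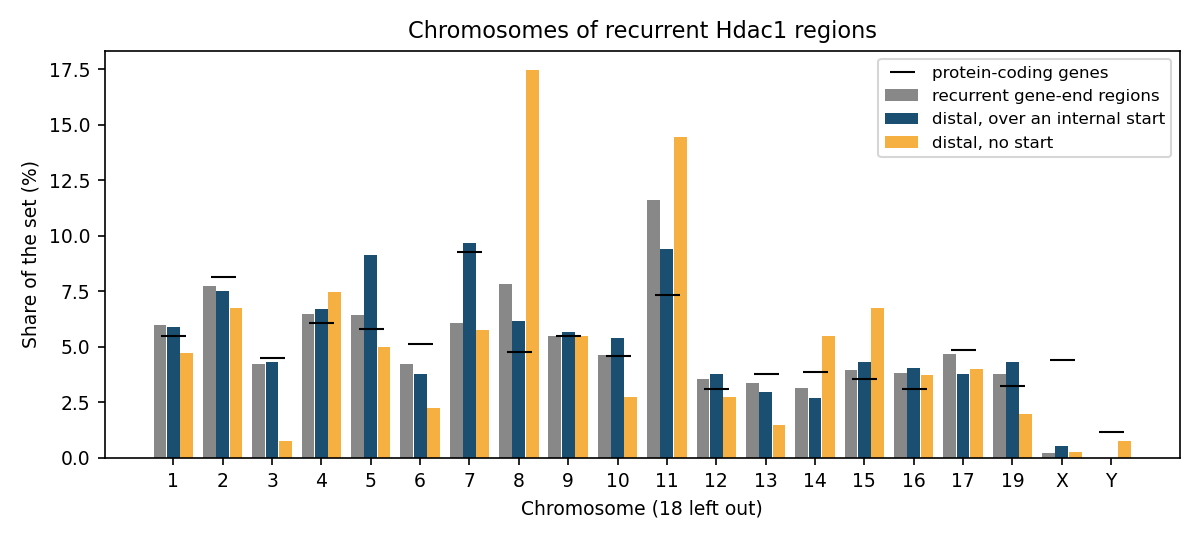
Share of each set on each chromosome (vertical axis, percent) for recurrent gene-end regions (grey bars), members over an inner start (dark bars) and members without a start (orange bars), with protein-coding genes as black dashes; chromosome 18, without starts in the table, is left out. The orange bar of chromosome 8 reaches 17.46%, against 7.828% for gene-end regions and 6.183% for members over a start.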

How the data were processed

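Chromatin was precipitated with Hdac1 or Hdac2 antibodies using a Diagenode kit, as the labels state. Tools named in the submitters' processing notes were bcl2fastq, Bowtie2 2.2.9, SAMtools 1.3.1 and MACS2 2.1.1.20160309, with the mm10 build. Sources used here do not give the calling threshold or the control. The authors deposited 1 list of peak positions per ChIP library (chromosome, start, end), with no score or count, so depth is unknown and percentile of width within a list stands in for rank.

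Members were found with the rule above (Python 3.11.15, pandas 2.3.3) and a RefSeq gene table of GRCm38.p6 with 49939 genes, 21883 of them protein-coding. Peaks were not filtered for regions of artefact signal. No genome sequence was used. The planned 300 bp at the centre of each region was therefore replaced by the 300 bp windows of 32851 RefSeq starts, none on chromosome 18, and 17491 coding genes had a start. Hdac2 shares and widths were compared over 3 lines with exact two-sided permutation tests (scipy 1.17.1). Hdac1 and Hdac2 libraries with the same number come from the same line by their titles. Members and gene-end regions were scored in the same 3 Hdac2 libraries, so a sign-flip test within lines was the paired alternative. The permutation test ignores this pairing. Its p-values rest on the spread between 3 libraries per antibody, part of which may be technical. Intervals cover counting error only. Merging and overlap steps were tested on simulated lists.

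Regions named were the widest 10 in all 3 lists, 10 in the most Hdac2 lists, and those at genes of the signalling, blood and vessel lists. Genes named were the 10 with the most members, and the 3 regions nearest the limit on each side. The members and the 13 gene lists were chosen with earlier results of these data known. Alternatives changed the window, the merging overlap, the number of lists, the gene set and the line left out. After the data were seen, Hdac2 by position was added.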

Additional observations from a re-analysis of the deposited data

Results flagged for a closer look

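The Hdac2 share at members minus that at recurrent gene-end regions had different signs in the 3 lines. The difference was -1.115 percentage points in Bry and -2.428 in Hd2lox, and 3.664 in Hd1_loxlox. In Hd1_loxlox members had the higher share and in the other lines gene-end regions did. Hdac2 peaks of Hd1_loxlox overlapped few regions of either kind, 7.384% of members and 3.721% of gene-end regions. In that list 4307 of 5161 peaks lay away from gene ends, against 2229 of 9279 in Bry and 5887 of 9082 in Hd2lox. The difference between lines was not tested, since each line had 1 Hdac2 library.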

How the results depend on the processing

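In all 16 settings no comparison of Hdac2 passed the threshold, which this design cannot reach. With the sign-flip test in each line (replicate block), the difference in Hdac2 share of 0.04025 points and in Hdac2 width of 5.667 bp both had exact p = 1. A window of 5000 bp left 422 members, 44.01% over an inner start and 395 genes, and one of 2000 bp gave a width difference of -9 bp. With windows around coding genes only, 52.18% of members were over a start, 76.55% overlapped a coding gene, and the Hdac2 differences were -0.632 points and -8 bp. Requiring all 3 Hdac1 lists left 316 members and 316 genes, with 64.36% over a start, 90.82% in a coding gene and a width difference of -25.83 bp. Without each line in turn, members numbered 387 (without Hd1_loxlox) to 635 (without Hd2lox), the share over a start was 48.62 to 61.99%, the share in a coding gene 81.42 to 90.96%, genes 383 to 603, the Hdac2 share difference 1.275 to 2.369 points and the width difference -24.25 to 20.25 bp. Without each Hdac2 library in turn these were -1.771 to 1.274 points and -7 to 27.75 bp. Requiring an Hdac2 peak over 50% of the narrower feature gave -0.3562 points and -11.17 bp. The cause of these shifts was not tested, beyond the smaller number of lists or regions. The sequence of whole regions was not run, since no genome sequence was used.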

Other observations

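The member farthest from any gene end, 339438 bp from Gm36661, lay over an inner start of Dab1 (chr4:104366627-104368570), in all 3 Hdac1 lists and 1 Hdac2 list. Of the 9 members beyond 100 kb, 3 covered an inner start (Dab1, Ntm and Fgf12), 4 lay inside the coding genes Rims1, Bnc2, Tenm3 and Csgalnact1, and 2 lay outside genes. A member outside genes at chr14:19415248-19419897 was in 5 of 6 lists, all but Hdac1 of Bry, with Hdac2 peaks of 4020 bp in Bry, 1526 bp in Hd1_loxlox and 4485 bp in Hd2lox, and the nearest coding gene end was 113803 bp away. The 4485 bp was the widest Hdac2 peak of Hd2lox at any member, where the median was 931 bp. Peaks were not filtered here for regions of artefact signal, so the occupancy of this member was not checked. These regions were picked out after their values were seen.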
